A study of Mus musculus with 8 samples.

Results

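The osteopontin gene lies in a stretch of mouse chromosome 5 shared with other secreted matrix proteins of bone, and 10 genes near it are described here. They were named by position: Hnrnpdl, Plac8, Coq2, Hsd17b11, Nudt9, Sparcl1, Dmp1, Ibsp, Mepe and Pkd2. Of these, 9 had a probe set named for that gene alone, out of 22180 such genes on the array, and they lie within 4.31 Mb. Pkd2, which encodes the ciliary channel polycystin-2, was not analysed here, and neither was the osteopontin gene itself. Its deletion was therefore not checked in any double mutant, and every double mutant value below rests on the label alone. The list was chosen by position with earlier results of these arrays known, and the difference between the mutants was among the measured values that chose it. Differences between the mutants are therefore given for the listed genes as a description, without a test.

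Kidneys came from mice aged 2 months in 3 groups, with 1 array of total RNA per mouse. There were 2 wild type mice, 3 labelled Col4a3-/- (single mutant) and 3 labelled Col4a3-/-OPN-/- (double mutant). Both mutant groups lack Col4a3, a chain of the collagen of the glomerular filter whose loss is a model of Alport kidney disease. No group lacked osteopontin alone, so a difference between the mutants is a difference within diseased kidneys. The sources used here do not give strain, sex or the construction of the alleles. Nothing in the labels beyond the replicate numbers says how the animals were related.

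A deleted gene carries its neighbours with it when a line is bred, and mice selected for a deletion can keep a flanking stretch of chromosome from the strain in which it was made. Genes in such a stretch can then differ between mutant and control for a reason other than the deletion, and are often called passenger genes. Osteopontin, Dmp1, Ibsp and Mepe also belong to 1 family, the acidic, integrin-binding phosphoproteins of bone and tooth, whose genes stand side by side in mammals. Of that family, osteopontin is the member known for strong expression in injured kidney tubules.

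The values are log2 expression as deposited. The medians of the 8 arrays lay between 5.18 and 5.25, and the lowest value on any array was 4.2. Col4a3 measured 8.77 and 8.42 in wild type, from 6.60 to 7.67 in the single and from 6.13 to 7.6 in the double mutants, so every mutant was below both wild type mice. Where its probes lie relative to the deleted part is not known here. Judged from Xist together with Kdm5d, Uty and Eif2s3y of the Y chromosome, both wild type mice read as male, and each mutant group read as 2 females and 1 male, namely single mutant 2 and double mutant 3. Sex and genotype are thus partly confounded in any comparison with wild type, and such differences are also given with sex in the model. That fit, called the sex term below, assumes 1 sex effect in all groups and estimates it in the mutants. With 1 male in each mutant group, this effect cannot be told apart from other traits of single mutant 2 and double mutant 3. All 7 markers of kidney epithelium, among them Umod and Lrp2, passed the filter described next. Their mean lay between 10.78 and 10.89 in wild type, between 10.38 and 11.13 in the single and between 10.21 and 10.97 in the double mutants, and was lowest in the male of each mutant group. The number of arrays limits the precision.

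Genes with a mean above a log2 value of 6.64, the 75th percentile of all probe sets, were tested. Of the 9 measured genes, 6 passed: Hnrnpdl, Plac8, Coq2, Hsd17b11, Nudt9 and Sparcl1. Dmp1, Ibsp and Mepe did not. Plac8 passed only through the mutants, since its wild type mean was 5.78 and its mutant means were 7.14 and 7.79. Its presence among the tested genes thus already depends on its being higher there. The start regions of these neighbours differ in composition, and 4 are shown because they stand for the kinds of gene in the stretch. They are the 250 bases before a listed transcript start, from RefSeq on GRCm38.p6, read on the strand of the gene, with each CG dinucleotide in capitals. Where several starts were listed, the one nearest the outer end of the annotated gene was taken. For Hnrnpdl and Nudt9 that start lies well inside the annotated span, so the bases before it do too. For Plac8 and Coq2 the bases overlap the span in small part. Hnrnpdl (chr5:100039223-100039472, minus strand) has 33 of them, Hsd17b11 (chr5:104021797-104022046, minus strand) has 13, Plac8 (chr5:100572206-100572455, minus strand) has 4 and Ibsp (chr5:104299037-104299286, plus strand) has 2.
Hnrnpdl: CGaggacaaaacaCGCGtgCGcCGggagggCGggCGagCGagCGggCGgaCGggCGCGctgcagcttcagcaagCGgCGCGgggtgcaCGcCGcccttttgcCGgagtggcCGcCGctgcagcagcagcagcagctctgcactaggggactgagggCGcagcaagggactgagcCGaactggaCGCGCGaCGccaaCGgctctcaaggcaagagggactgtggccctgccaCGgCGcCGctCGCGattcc
Hsd17b11: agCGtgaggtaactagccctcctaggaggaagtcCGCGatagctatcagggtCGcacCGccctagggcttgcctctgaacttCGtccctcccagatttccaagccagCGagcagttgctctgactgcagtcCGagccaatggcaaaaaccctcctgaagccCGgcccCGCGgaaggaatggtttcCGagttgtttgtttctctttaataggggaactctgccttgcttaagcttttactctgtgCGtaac
Plac8: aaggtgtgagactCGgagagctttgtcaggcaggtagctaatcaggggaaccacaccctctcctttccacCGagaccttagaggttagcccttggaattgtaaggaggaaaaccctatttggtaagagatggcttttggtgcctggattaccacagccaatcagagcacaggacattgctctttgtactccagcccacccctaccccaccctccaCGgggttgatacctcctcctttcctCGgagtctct
Ibsp: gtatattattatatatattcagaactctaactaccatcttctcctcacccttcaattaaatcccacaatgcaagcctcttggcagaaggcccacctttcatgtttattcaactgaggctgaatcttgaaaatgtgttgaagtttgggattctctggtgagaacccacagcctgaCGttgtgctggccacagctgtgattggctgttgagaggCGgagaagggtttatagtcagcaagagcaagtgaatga
The median over 27025 promoters of this length was 6. Among the members with an entry, Hnrnpdl, Nudt9, Coq2 and Hsd17b11 held between 13 and 33, while Plac8, which also passed the filter, held 4. Dmp1, Ibsp and Mepe, which did not pass, held between 2 and 5. The letters TATAAA, searched on both strands, occur before Ibsp and Mepe and in 13.0 percent of all promoters, and Sparcl1 had no entry.

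The 3 measured bone matrix genes sat near the lower end of the scale in every kidney and separated no groups. Dmp1 (chromosome 5, 104197575 to 104214102), which helps nucleate mineral and is made by osteocytes, lay between 4.50 and 4.70 on the 8 arrays. Ibsp (104299287 to 104311472), bone sialoprotein, lay between 4.51 and 4.62. Mepe (104325329 to 104338611), a regulator of mineralization and phosphate, lay between 4.73 and 4.85. In each of them the ranges of all 3 groups overlapped.

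In the fit without a filter, none of the comparisons among the groups moved these genes by more than 0.06 on the log2 scale. The double mutant exceeded the single mutant by 0.06 (SE 0.06) in Dmp1, 0.02 (SE 0.05) in Ibsp and 0.05 (SE 0.05) in Mepe. Single mutant minus wild type was -0.04, -0.05 and -0.03 (adjusted p = 0.826, 0.697 and 0.854 in limma). Dspp, the tooth member of the family that stands beside Dmp1, was also below the filter, with group means of 5.01, 5.09 and 5.13 in wild type, single and double mutants. Values this low may not respond to a change in transcript, so an effect on them was not detectable here. Of 7 bone markers on the list, which include Dmp1 and Ibsp, only Alpl, which proximal tubules also make, passed the filter.

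**Figure D1:**
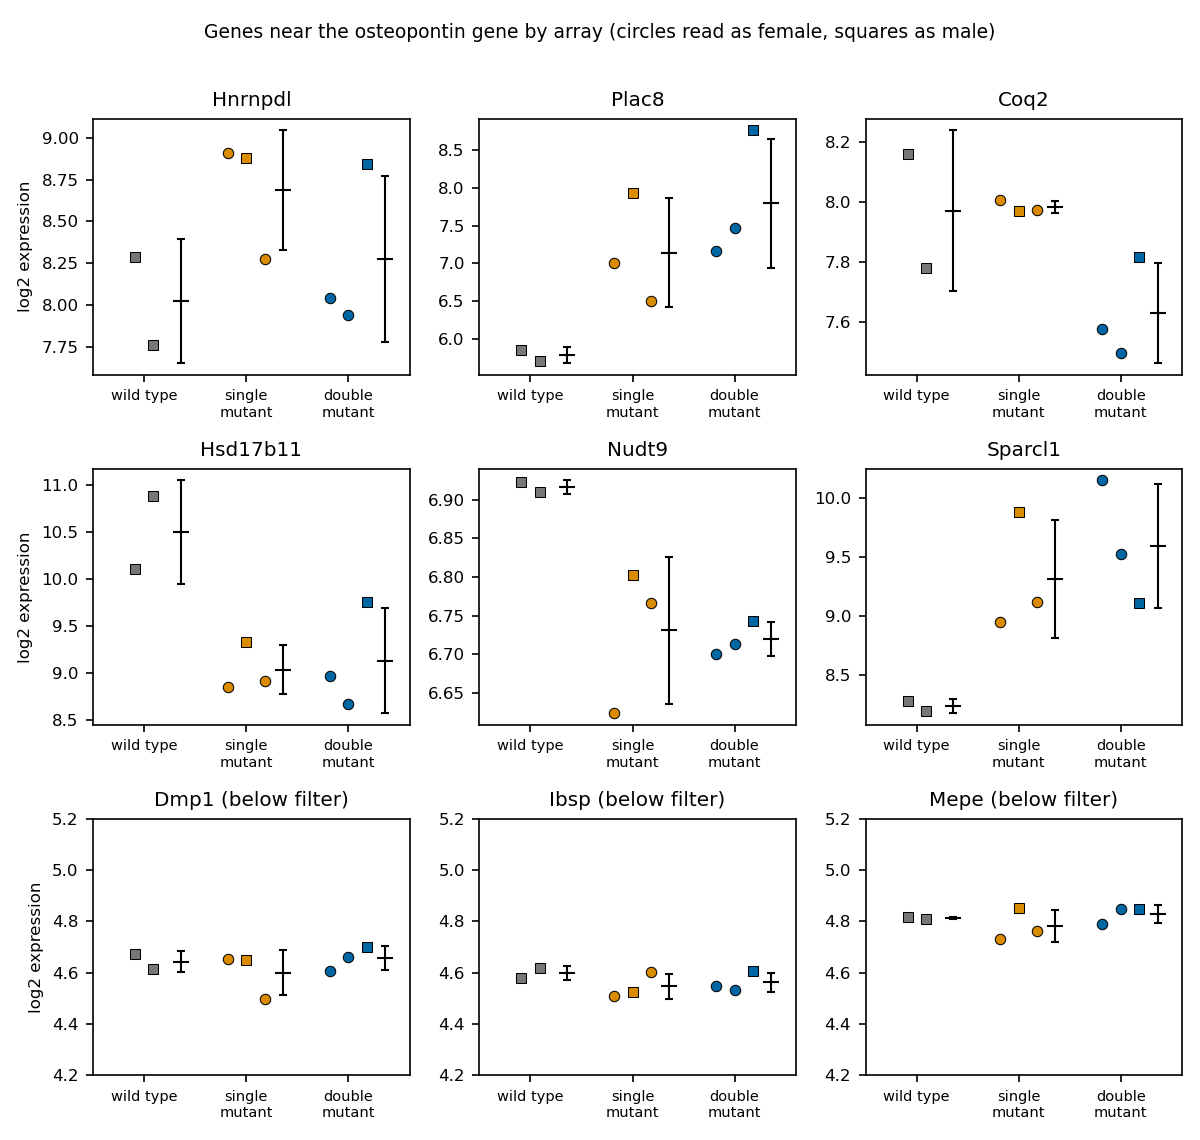
Log2 expression of the 9 measured genes on each of the 8 arrays, ordered along chromosome 5, with the group mean and SD beside the points; axes differ between panels of the upper rows and run from 4.2 to 5.2 in the bottom row. Plac8 and Sparcl1 lie above, and Hsd17b11 and Nudt9 below, both wild type arrays in all 6 mutants, Coq2 is lower in all 3 double than in all 3 single mutants, and Dmp1, Ibsp and Mepe lie between 4.50 and 4.85 everywhere.

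Between the mutants, Coq2 was the listed gene whose arrays separated. Coq2 (100654723 to 100674288) encodes the enzyme that attaches the isoprenoid tail in coenzyme Q synthesis. It measured 8.01, 7.97 and 7.97 in the single mutants and 7.58, 7.50 and 7.82 in the double mutants. Every double mutant was thus below every single mutant, while the wild type arrays, at 8.16 and 7.78, spanned the gap. The difference of the double from the single mutant was -0.35 (SE 0.14), a 1.28-fold lower level, and it was -0.45 among females and -0.15 between the males, 1 mouse in each mutant group.

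Of 9 coenzyme Q genes above the filter, Coq2 included, 4 were higher and 5 lower in the double than in the single mutant, with a median of -0.04, and Coq2 had the lowest difference. The remaining 8 were all lower in the single mutant than in wild type, from -0.998 for the methyltransferase Coq5 to -0.18 for Coq10b, while Coq2 differed by 0.01 (SE 0.16, adjusted p = 0.97 in limma). None of the 9 passed in that fit, in which the median over all 7145 tested genes was -0.07. Once sex was in the model, 4 fell in the single mutant, namely Coq3 at -0.83, Coq5 at -1.73, Coq8a at -0.87 and Coq10a at -0.74 (adjusted p = 0.011, 0.0073, 0.0235 and 0.0135 in limma). In that fit 19.9 percent of all tested genes were called lower, and the median over them was -0.15. The sign of that value for Coq2 turned with median centring (-0.0056), with the replicate block (-0.0308) and without wild type 2 (-0.18).

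Hnrnpdl and Plac8, which flank Coq2 on the far side from the osteopontin gene, differed more between the mutants in size but overlapped. Hnrnpdl (100033577 to 100039936), an RNA-binding protein of splicing, measured 8.91, 8.88 and 8.28 in the single and 8.04, 7.94 and 8.85 in the double mutants. Its 2 female double mutants were below all single mutants and the male was not. The difference was -0.41 (SE 0.29), with -0.61 in females and -0.03 in males. Hnrnpd, its close relative nearby, differed by -0.03 (SE 0.15), and 4 of 16 hnRNP genes were higher in the double mutant, with a median of -0.06.

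Plac8 (100551589 to 100572253), a small cysteine-rich protein of leukocytes and epithelia, measured 7.0, 7.93 and 6.5 in the single and 7.16, 7.46 and 8.76 in the double mutants. The difference was 0.65 (SE 0.47), with 0.56 in females and 0.83 in males. Within each sex every double mutant exceeded every single mutant, although the groups as wholes overlapped. The value rested on few arrays, as it was 0.17 without double mutant 3 and 1.04 without single mutant 2.

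The 3 tested genes of the list that lie nearest to the osteopontin gene differed by 0.28 or less between the mutants. Nudt9 (104045538 to 104065378), which splits ADP-ribose, differed by -0.01 (SE 0.11) between the mutants. Hsd17b11 (103989765 to 104021796), a dehydrogenase of lipid droplets, differed by 0.10 (SE 0.32), with -0.07 in females and 0.43 in males, and it was -0.21 without double mutant 3. Sparcl1 (104079108 to 104114088), the matrix protein hevin, measured 8.95, 9.89 and 9.12 in the single and 10.15, 9.53 and 9.11 in the double mutants. The female double mutants exceeded the female single mutants by 0.81, and the male difference was -0.78, so that the difference of 0.28 (SE 0.31) averages opposite signs. The male value compares 1 mouse with 1, and the interaction of sex with genotype did not pass in limma (1.58, adjusted p = 0.13, chosen after the values were seen). Without double mutant 1 the difference was 0.0006, and without single mutant 2 it was 0.56.

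Since the double mutant label was not checked, each of those arrays was also left out. The Coq2 difference lay between -0.45 without double mutant 3 and -0.29 without double mutant 2, and that of Hnrnpdl between -0.70 and -0.25 for the same arrays. Without double mutant 2, Plac8 differed by 0.82, Sparcl1 by 0.31, Hsd17b11 by 0.33 and Nudt9 by -0.01. 

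Of the 6 listed genes above the filter, 1 had mutant ranges that did not overlap, against 5.01 percent of all tested genes. None was called in limma, where the share of all tested genes called was 0 percent and 104 of 7145, or 1.46 percent, had an unadjusted p under 0.05. Since the rule used this contrast, nothing is read from these counts.

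The other genes of the stretch were taken by position alone, as all those whose start lies within 5 Mb of the interval between Mepe and Pkd2, where the osteopontin gene stands. There were 91 with a named probe set, of which 24 passed the filter. None was called between the mutants in limma, 1 had an unadjusted p under 0.05, and the median difference was -0.02, against 0.0013 over all tested genes. Their ranges in the mutants were apart for 5 of 24, or 20.8 percent, against 5.01 percent of all tested genes. The median size of the difference was 0.13 in these 24 and 0.10 over all tested genes.

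Those 5 genes were Enoph1, Cops4 and Cds1, which were higher in the double mutant, and Wdfy3 and Lrrc8b, which were lower. Lrrc8b (start 105415206), a subunit of the volume-regulated anion channel, measured 8.25, 7.65 and 7.85 in the single and 7.30, 7.59 and 7.53 in the double mutants. Its difference was -0.44 (SE 0.17) and its wild type values, 8.23 and 8.28, lay above all double mutants. Wdfy3 (start 101832953), an adaptor of selective autophagy, measured 9.14, 9.40 and 9.39 in the single and 9.04, 9.01 and 9.09 in the double mutants, a difference of -0.27 (SE 0.12).

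The 3 higher genes differed by smaller amounts. Cds1 (start 101765093), which makes CDP-diacylglycerol for phospholipid synthesis, measured 6.65, 6.49 and 6.75 in the single and 6.78, 6.89 and 6.84 in the double mutants, a difference of 0.20 (SE 0.11). Enoph1 (start 100039028), an enzyme of methionine salvage, differed by 0.18 (SE 0.11). Its start lies inside the annotated span of Hnrnpdl, so signal of these genes could be shared. Cops4 (start 100518295), a subunit of the COP9 signalosome, differed by 0.10 (SE 0.11) and is named here because its ranges were seen to be apart. Cops4 differed by less than its SE.

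Among the neighbours above the filter, the remaining large differences overlapped between the mutants. They were 0.27 (SE 0.17) for Dipk1a, 0.18 (SE 0.13) for Rps15a-ps5 and 0.13 (SE 0.25) for Lrrc8c on the higher side. On the lower side they were -0.36 (SE 0.22) for the sulfate transporter Slc26a1, -0.21 (SE 0.21) for the TGF-beta coreceptor Tgfbr3 and -0.20 (SE 0.17) for Aff1, a transcription elongation factor. Neighbours below the filter were not tested, and some of them also had mutant ranges apart. In the fit without a filter, Tmed5 was among those higher in the double mutant, at 0.34 (SE 0.07). Dgkq was among those lower, at -0.29 (SE 0.13).

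Above the filter, the separated genes stood mostly on 1 side, a split made after the values were seen. Before the osteopontin gene 4 of 9 tested neighbours had ranges apart, and after it 1 of 15. Below the filter, separated genes stood on both sides, among them Lin54 and Mapk10 before it and Tmed5 and Cplx1 after it. Without the listed genes, ranges were apart for 1 of 6 tested genes within 2 Mb and for 4 of 18 between 2 and 5 Mb. They were apart for 0 of 25 between 5 and 10 Mb and for 2 of 95 between 10 and 20 Mb. Farther away on chromosome 5 they were apart for 21 of 304, or 6.91 percent, and on other chromosomes for 4.89 percent of 6673 genes. No band held a gene called in limma. The labels do not give the genotype of the stretch in these mice, and whether a flanking stretch from another strain moves with these differences was not tested.

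**Figure D2:**
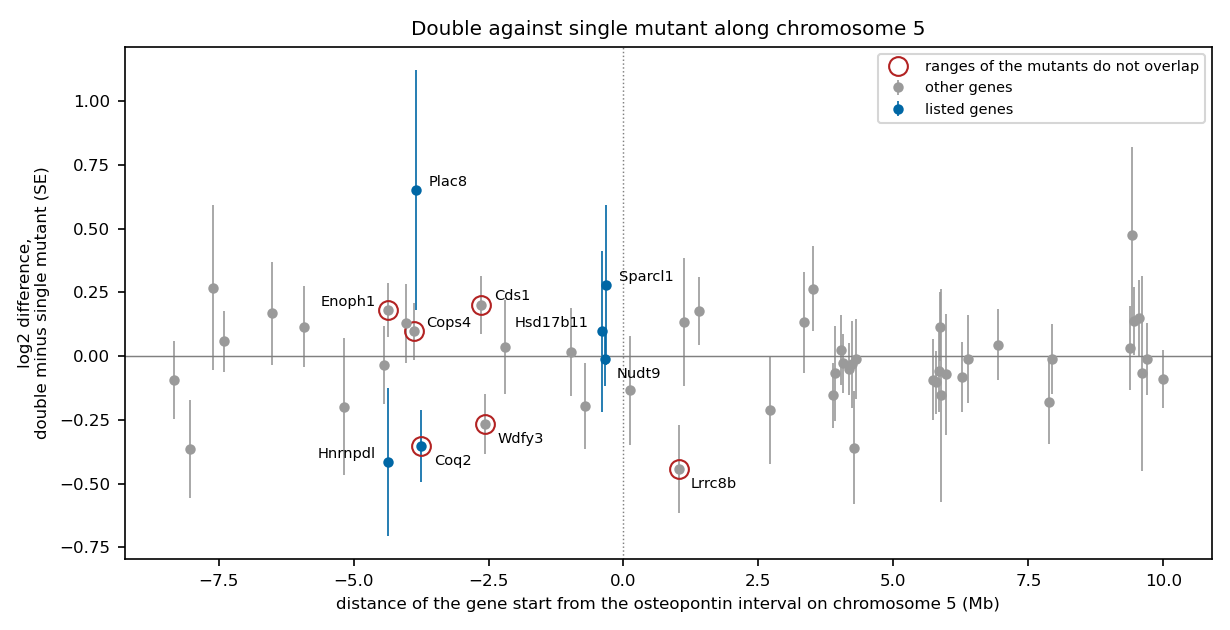
Fitted log2 difference of the double minus the single mutant, with its SE, for each tested gene within 10 Mb of the osteopontin interval on chromosome 5, against the distance of its start in Mb; negative distances are toward the start of the chromosome. Rings mark genes whose mutant ranges do not overlap: 4 neighbours and Coq2 lie before the interval and Lrrc8b after it, and 0 lie between 5 and 10 Mb.

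Against wild type, 4 of the 6 tested genes stood apart from both wild type arrays in all 3 single mutants. These were Plac8 and Sparcl1, which were higher, and Hsd17b11 and Nudt9, which were lower. The ranges of single mutant and wild type were apart for 48.4 percent of all tested genes. The same 4 genes stood apart in all double mutants, where the share of all tested genes was 46.2 percent, and both comparisons share the wild type arrays. No listed gene was called in limma in either comparison, where 0.028 and 0.084 percent of tested genes were. An unadjusted p under 0.05 was reached by 3 of the 6 in each, against 23.2 and 21.6 percent of all tested genes.

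Hsd17b11 measured 10.10 and 10.88 in wild type, 8.85, 9.33 and 8.91 in the single and 8.96, 8.67 and 9.75 in the double mutants. The highest mutant values were those of the 2 males. The single mutant differed by -1.46 (SE 0.35, adjusted p = 0.108 in limma), a 2.75-fold lower level. The value in the double mutant was -1.36, with an adjusted p of 0.0987. In the model with sex, Hsd17b11 fell, with a difference of -1.0, in the single mutant (adjusted p = 0.0374 in limma). There the double mutant differed by -0.90, with an adjusted p of 0.0544. Among the mutant arrays, the call in the single mutant was lost without any 1 single mutant or double mutant 1 (adjusted p up to 0.321 in limma). It held without double mutant 2 or 3. Leaving out a wild type array leaves 1 in that group, so only the size is given. Without the sex term, the single mutant then differed by -1.85 without wild type 1 and -1.07 without wild type 2. Among males alone, with 1 mutant each, the differences were -1.17 and -0.74.

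Of 11 measured 17-beta-hydroxysteroid dehydrogenases 4 were tested, and all 4, Hsd17b11 included, were below wild type in the single mutant, with a median of -0.32, without any passing. Given the sex term 3 fell in the single mutant, against 19.9 percent of all tested genes. The others were the peroxisomal Hsd17b4 at -0.76 and the mitochondrial Hsd17b10 at -0.54. In the double mutant 1 of the 4 fell in that fit, and it was not Hsd17b11, where 24.2 percent of all tested genes were called in either direction. Hsd17b13, the lipid droplet enzyme in the gene next to Hsd17b11, was below the filter, with group means of 5.27, 5.12 and 5.13.

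Plac8 measured 5.86 and 5.71 in wild type, below all 6 mutants. The single mutant differed by 1.36 (SE 0.53, adjusted p = 0.182 in limma), which is 2.57-fold higher. Double mutants were 2.01 above wild type, or 4.03-fold, at the same SE and an adjusted p of 0.099. In the model with sex, Plac8 rose by 2.24 (SE 0.22, adjusted p = 0.0056 in limma) and by 2.89 (SE 0.22, adjusted p = 0.0035). These tests are conditioned on the filter, which Plac8 passed through its mutant values. The highest value of each mutant group was that of its male, 7.93 and 8.76, and these males exceeded the wild type mean by 2.15 and 2.98.

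Macrophage markers, like Plac8, were higher in the mutants than in wild type, but did not follow its order among the double mutants. The mean of the 12 measured macrophage and monocyte markers lay between 6.38 and 6.53 in wild type, between 7.10 and 8.35 in the single and between 7.77 and 8.07 in the double mutants, and 8 of the 12 passed the filter. With sex in the model 5 of these 8 were called higher and 1 lower in the single mutant, against 7.31 and 19.9 percent of all tested genes. In the single mutants the mean of these markers was highest in mutant 2, as was Plac8. In the double mutants the male, highest in Plac8, was lowest in these markers. The mean of 8 lymphocyte markers, none of which passed the filter, lay between 4.99 and 4.99 in wild type, between 5.07 and 5.30 in the single and between 5.24 and 5.96 in the double mutants, where their order was the reverse of that of Plac8. The mean of the 6 neutrophil markers lay between 4.62 and 4.78 in all groups. Of 4 plasmacytoid dendritic cell markers Siglech and Ccr9 were below the filter. The 2 tested ones, Bst2 and Tcf4, were above wild type, with a median of 0.55 in the single and 0.43 in the double mutant. With sex in the model 1 of these 2 was called higher in the single mutant and 0 in the double. In whole kidneys more cells of a type and more RNA per cell cannot be told apart, and the part of leukocytes in the Plac8 values was not tested.

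The tested genes with the pattern closest to that of Plac8, by the root mean square difference of centred values over the 8 arrays, were Cldn4 at 0.26, S100a6 at 0.28, Akap12 at 0.34, Aldh1a2 at 0.35 and Osmr at 0.35. Of these only Cldn4 is on chromosome 5, 30.5 Mb away. Cldn4 is a tight junction protein of distal nephron and collecting duct, and Osmr is the receptor for oncostatin M.

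Sparcl1 measured 8.28 and 8.2 in wild type, below all 6 mutants. The single mutant differed by 1.08 (SE 0.35, adjusted p = 0.144 in limma), or 2.11-fold. Double mutants were 1.36 above wild type, or 2.56-fold, at the same SE and an adjusted p of 0.0987. In the model with sex the single mutant differed by 1.12, with an adjusted p of 0.0815, and Sparcl1 rose in the double mutant by 1.40 (adjusted p = 0.0474 in limma). That call was lost when any array other than double mutant 1 or 3 was left out, with an adjusted p of up to 0.177. The other tested members of its family, Sparc, Smoc2 and Fstl1, were higher in the single mutant by 0.96, 1.84 and 1.09 without passing. Given the sex term these 3 rose in both mutants, Smoc2 by 2.21 and 2.31, although Smoc2 and Fstl1 also passed the filter only through their mutant values. In that fit 7.31 percent of all tested genes were called higher in the single and 6.4 percent in the double mutant.

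Markers of pericytes, fibroblasts and smooth muscle, like Sparcl1, were higher in all mutants than in wild type. Their mean, over 10 markers that all passed the filter, lay between 7.30 and 7.44 in wild type, between 8.21 and 9.12 in the single and between 8.59 and 8.99 in the double mutants. It was highest in mutant 2 among the single and lowest in mutant 3 among the double mutants, as was Sparcl1, but was highest in mutant 2 among the double mutants, where Sparcl1 was highest in mutant 1. The mean of 8 endothelial markers overlapped between all groups, from 8.29 to 8.42 in wild type, from 8.34 to 8.70 in the single and from 8.08 to 8.80 in the double mutants. The part of either cell type in the Sparcl1 values was not tested.

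**Figure D3:**
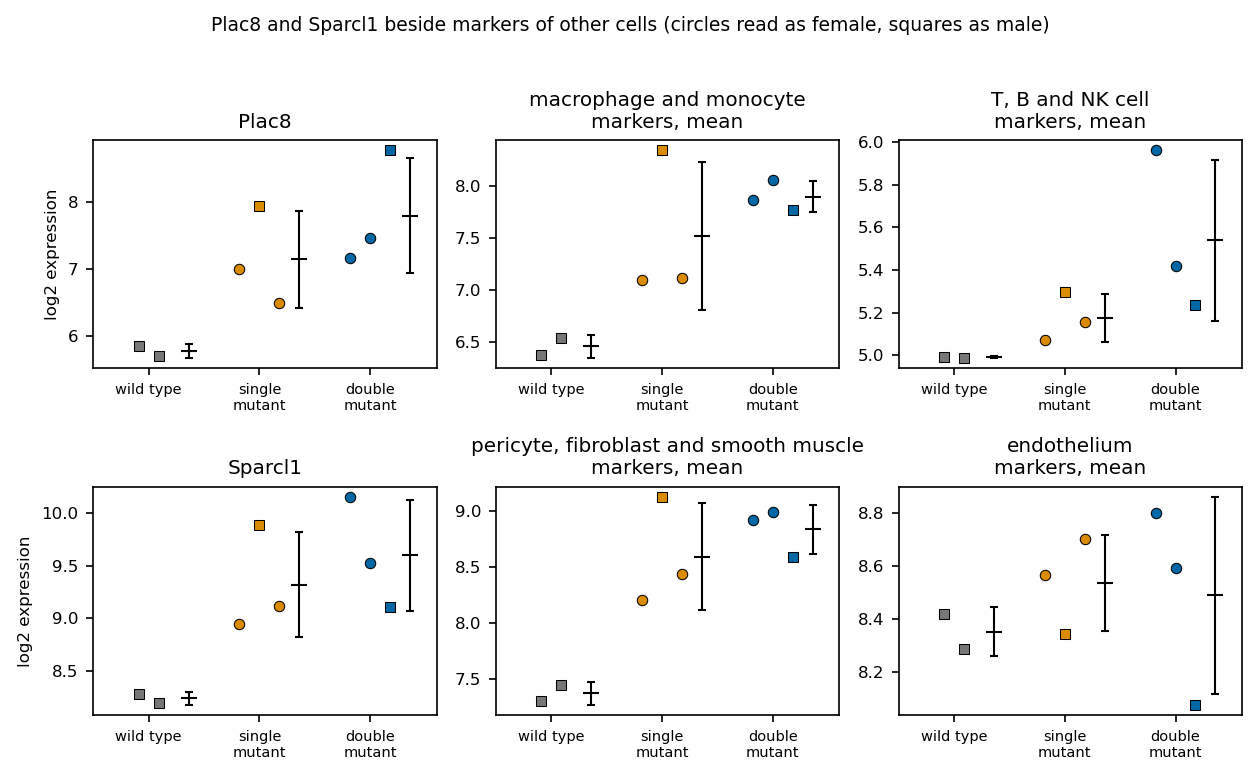
Log2 expression of Plac8 and Sparcl1 on each array beside the mean log2 expression of the marker lists of leukocytes, mural cells and fibroblasts, and endothelium, with group mean and SD. The macrophage and the pericyte, fibroblast and smooth muscle means lie above both wild type arrays in all 6 mutants, as do Plac8 and Sparcl1, while the endothelial means overlap between groups.

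Hnrnpdl and Nudt9 differed from wild type by less. Hnrnpdl measured 8.28 and 7.76 in wild type and differed by 0.67 (SE 0.33, adjusted p = 0.251 in limma) in the single and 0.25 (SE 0.33, adjusted p = 0.676) in the double mutant. Given the sex term it rose in the single mutant by 1.05 (adjusted p = 0.035 in limma) and differed by 0.63 (adjusted p = 0.141) in the double. Among the 16 tested hnRNP genes it was the only one called in the single mutant in that fit, where 27.2 percent of all tested genes were called. Among the mutant arrays, this Hnrnpdl call was lost without single mutant 2 or any 1 double mutant, with an adjusted p of up to 0.0982 in limma. It held without single mutant 1 or 3. Leaving out a wild type array leaves 1 in that group, so only the size is given. Without the sex term, the single mutant then differed by 0.93 without wild type 1 and 0.40 without wild type 2. Nudt9 measured 6.92 and 6.91 in wild type, from 6.62 to 6.80 in the single and from 6.70 to 6.74 in the double mutants, so that both mutants lay just below wild type. The differences were -0.19 and -0.20 (SE 0.12), did not pass in either fit, and were smaller than those of the relatives Nudt12 at -1.28 and Nudt19 at -1.18 in the single mutant, which passed with the sex term alone.

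With the sex term, 3 of the 6 were called in the single mutant, Plac8 and Hnrnpdl higher and Hsd17b11 lower, against 27.2 percent of all tested genes (7.31 percent higher and 19.9 percent lower). Plac8 entered the 6 through its mutant values, so its part in this count is no support. In the double mutant 2 of the 6 were called, Plac8 and Sparcl1, both higher, against 24.2 percent (6.4 percent higher). The median over all tested genes was itself -0.15 in this fit. These calls rest on few arrays. Without single mutant 2 no listed gene and no other gene was called in the single mutant, where Plac8 had an adjusted p of 0.0583 in limma. Without wild type 2, 66 genes were called in the single and 70 in the double mutant, and Plac8 was the only listed gene among them in each.

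**Figure D4:**
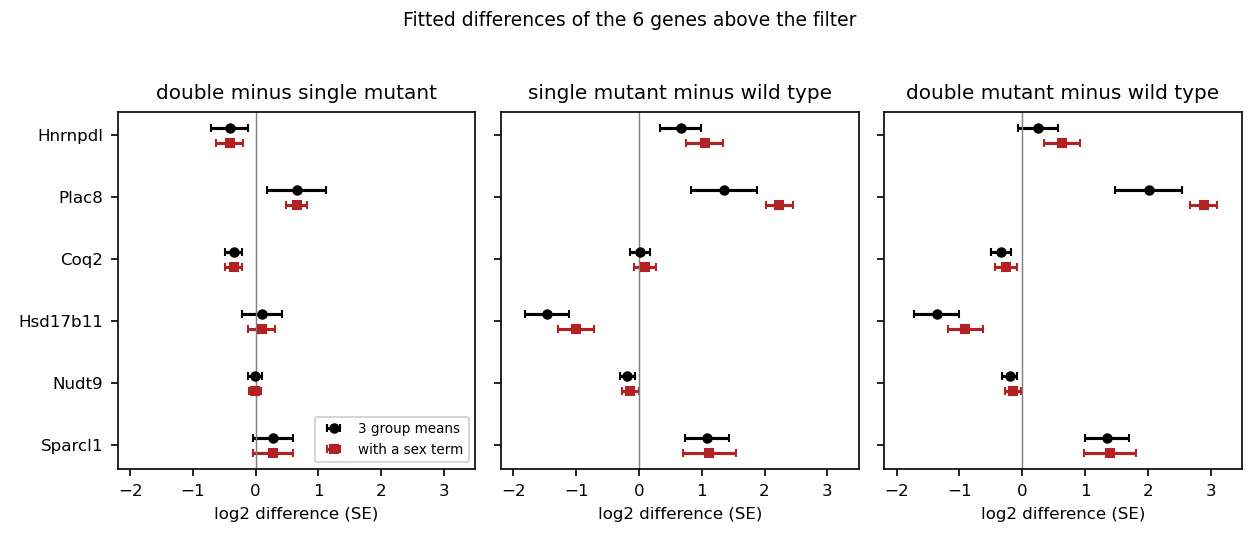
Fitted log2 difference and SE of the 6 genes above the filter in the 3 comparisons, from the fit of 3 group means and from the fit with a term for sex. The difference between the mutants is the same in both fits because each mutant group holds 2 females and 1 male, while against wild type the sex term moves Plac8 from 1.36 to 2.24 and Hsd17b11 from -1.46 to -1.0 in the single mutant.

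The other genes of the stretch followed the whole array against wild type. In the model with sex, 5 of the 24 were called in the single mutant, or 20.8 percent, against 27.2 percent of all tested genes. Ptpn13, a phosphatase, rose by 0.66, while Dipk1a, Pigg, Tmem175 and Slc26a1 fell, with differences of -0.73, -0.64, -0.87 and -1.16. In the double mutant 5 were called too, against 24.2 percent: Ptpn13 rose by 0.68, and Pigg, Tmem175, Slc26a1 and Lrrc8b fell, with differences of -0.71, -0.90, -1.51 and -0.88. Of the polycystin list, which holds partners of the unmeasured Pkd2, 6 were tested and 4 called in the single mutant with the sex term. Pkd1 at 0.81, Pkhd1 at 0.9999 and Bicc1 at 0.95 rose there, and Ganab at -0.59 fell. Of all tested genes, 7.31 percent were called higher and 19.9 percent lower in that comparison. In the double mutant 3 of the list were called higher and 1 lower with the sex term. Between the mutants Pkd1 differed by -0.18 and Pkhd1 by -0.35, and neither passed.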

How the data were processed

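The authors deposited log2 expression values, 1 for each of 33793 probe sets and 8 arrays. The unit was read from their range, and how the arrays were normalized, summarized and background-corrected is not given in the sources used. The labels name a labelling kit commonly used for small RNAs, while the probe sets name genes. Of the probe sets 23521 named 1 gene, 1814 several and 8458 none. For a gene with several, the one with the highest mean was kept. Positions and promoters are from RefSeq (GRCm38.p6), matched by gene ID for 21994 of 22180 genes. Groups were compared in 1 limma 3.58.1 fit (R 4.3.3) with 5 residual degrees of freedom, 4 with a sex term, with two-sided p-values adjusted by Benjamini-Hochberg over 7145 genes and called under 0.05. Fold values are 2 to the power of the difference. The fit without a sex term was also run on simulated data, with changes in the double mutant alone and no sex effect. That run does not bear on the fit with a sex term.

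The listed genes, partner and marker lists, neighbours within 5 Mb, sex term and tests were chosen with earlier results of these data known. Named neighbours are those called and the 5 highest and 5 lowest between the mutants, plus exceptions stated. The alternatives were other filters, scalings, variance models, array weights, fewer groups, the replicate number as a block, 1 sex, mean probe sets and leaving out each array. The sex interaction and the sex term with an array left out were added after seeing the data. A description of proteins that had been planned was not made. Nothing says the mice were unrelated, so p-values measure the spread between these samples. Blood markers of the list had no single-gene probe set. Figures used Python 3.11.15 and matplotlib 3.10.9.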

Additional observations from a re-analysis of the deposited data

How the results depend on the processing

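The number of calls against wild type depended on the fit, while between the mutants 0 genes passed in every setting run, the one with females alone included. For the single mutant against wild type, 2 genes were called, 7 without a filter, 807 with array weights, 0 with only the 2 groups compared, 0 with the replicate block, 1946 with the sex term and from 0 to 4 when 1 array was left out. Listed genes called there were 0, or 1 with array weights and 3 with the sex term, and neighbours 0, or 2 and 5. For the double mutant, 6 genes were called, 10 without a filter, 16 at the 50th percentile, 1272 with array weights, 344 with only the 2 groups compared, 0 with the replicate block, 1728 with the sex term and from 0 to 590 when 1 array was left out. Listed genes called there were 0, or 3 with array weights, 2 with the sex term and from 0 to 2 when 1 array was left out. Neighbours called were 0, or 3 with array weights, 2 with only the 2 groups compared, 5 with the sex term and from 0 to 2 when 1 array was left out. With the sex term and 1 array left out, listed genes called ranged from 0 to 3 in the single and from 1 to 2 in the double mutant. The Coq2 difference of single mutant from wild type turned to -0.0056 with median centring and -0.0308 with the replicate block, and ranged from -0.18 to 0.20 when 1 array was left out. The Hnrnpdl difference of double mutant from wild type ranged from -0.0342 to 0.51 in the same way. Deviations of same-numbered single and double mutants correlated at 0.26, -0.34 and -0.58, for numbers 1, 2 and 3 in order. Numbers 2 and 3 each set a male against a female, while the 2 mutant males, differently numbered, correlated at 0.54. These values therefore cannot show whether same-numbered mice were paired. The median difference between the mutants over the neighbours was -0.06 within 2 Mb and -0.01 within 10 Mb.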
